A study of Mus musculus with 6 samples.

Results

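The genes described here are 10 genes that encode enzymes of sulfur compound oxidation and their close partners, namely Selenbp1, Selenbp2, Ethe1, Sqor, Suox, Tst, Mpst, Cth, Cbs and Cdo1, out of 56884 gene IDs in the tables. They were taken by gene name, and all 10 names were found once in each of the 6 libraries. They were chosen by the TPM contrast of K382Q against K382R, in which Selenbp1 was already known to have a large difference, with the other genes added as its pathway. Their values in that contrast are therefore given as a description, without p-values, and the count of members past the thresholds stands once beside that of all genes.

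RNA was sequenced from a cell line of the stromal vascular fraction (SVF) of mouse subcutaneous white adipose tissue (scWAT), the fraction that holds adipocyte precursors. The study asked what acetylation of PPARγ2 at lysine 382 does in beige adipocyte differentiation. The cells carried a retroviral vector for HA-tagged PPARγ2 K382Q, in which glutamine resembles acetylated lysine, or K382R, in which arginine keeps the charge of the deacetylated form, with 3 biological replicates of each. Every culture of both groups had been selected with puromycin and kept for 2 days in the same beige induction medium, which held isobutylmethylxanthine, indomethacin, dexamethasone, insulin, T3 and rosiglitazone. Neither group was an unmodified control, and rosiglitazone, a PPARγ agonist, was present in both. The labels call the replicates biological without saying whether they came from separate transductions, so the errors cover only the spread between these cultures.

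Sulfur amino acids are broken down along connected routes. Cystathionine β-synthase (Cbs) and cystathionine γ-lyase (Cth) turn homocysteine into cysteine, and both can release hydrogen sulfide, as can 3-mercaptopyruvate sulfurtransferase (Mpst). In mitochondria, sulfide:quinone oxidoreductase (Sqor) oxidizes sulfide and passes its electrons to the respiratory chain, the persulfide dioxygenase ETHE1 and the sulfurtransferase rhodanese (Tst) handle the persulfides, and sulfite oxidase (Suox) makes sulfate. SELENBP1 is a methanethiol oxidase that converts methanethiol into hydrogen sulfide, formaldehyde and hydrogen peroxide, and it binds selenium without being a selenocysteine protein itself. Cysteine dioxygenase (Cdo1), which is abundant in adipose tissue, starts the separate route from cysteine to taurine.

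Values are TPM, transcript abundances that sum to the same total in every library, scaled to transcript length and can be compared between genes. The total length of aligned reads was 5.95 to 7.50 Gb in K382Q libraries and 6.53 to 8.15 Gb in K382R libraries. Transcripts of Pparg, which include those of the vector as far as they align to the gene, were at 1333, 1164 and 1104 TPM in K382Q cells and at 1590.0, 1632 and 1612 TPM in K382R cells, so the group with less Pparg RNA was K382Q. Adipocyte markers were abundant, with a summed level of 53860.0 to 57685 TPM over 8 genes in K382Q cells and of 44333 to 45637 TPM in K382R cells. Most of this was Fabp4, and the other 7 genes summed to 7393 to 7494 TPM against 6942 to 7096 TPM. Of these 8, 3 were higher (Fabp4, Cidec and Cd36) and 2 lower (Lpl and Adipoq, the latter at 147 to 149 TPM against 346 to 383 TPM) in K382Q cells by the test used for the partner genes. Under median-ratio scaling 5 were higher, with Plin1 (log2 fold change 0.10) and Plin4 (0.12) added, and 1 was lower, since Lpl went from -0.19 to -0.03 and did not pass. Of 9 progenitor and fibroblast markers 6 were tested and all 6 were lower in K382Q cells, beside 36.9% of all genes tested in the same TPM fit. All 6 were also lower under median-ratio scaling, where Col3a1 went from -0.25 to -0.10. The 9 markers summed to 566 to 612 TPM against 936 to 972 TPM, while Dpp4 and Lum were listed at 0 in every library. Of 8 leukocyte markers 7 stayed under 0.5 TPM in every library (Ptprc at most 0.0129 TPM, Adgre1 and Cd3e at 0) and of 7 endothelial markers 6 did. The 4 pericyte and smooth muscle markers summed to 5.12 to 6.74 TPM against 5.23 to 5.92 TPM, and the 4 skeletal muscle markers to 2.21 to 2.97 TPM against 4.59 to 5.76 TPM, the latter from Acta1, with Myod1 and Myog at 0. The part of the differences in adipocyte and progenitor markers in the results that follow was not tested. In these bulk libraries, fewer cells of a type and less RNA per cell cannot be told apart.

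Selenbp1 was higher in K382Q cells by a factor of 8.94 in mean TPM. This gene (ENSMUSG00000068874.14, chromosome 3, 94840367 to 94852069 of GRCm39, plus strand) was at 40.1, 48.6 and 43.9 TPM in the K382Q libraries and at 4.87, 6.07 and 3.90 TPM in the K382R libraries. The lowest K382Q library thus lay far above the highest K382R library, and the 2 groups did not overlap. The mean level was 44.2 ± 4.25 TPM (SD, n = 3) against 4.95 ± 1.09 TPM (SD, n = 3). The fitted difference on the log2(TPM + 0.5) scale was 3.05, with a standard error of 0.142 and a 95% interval of 2.72 to 3.38, the 6th highest of 15426 genes tested. Leaving out each library in turn moved it only between 2.91 and 3.20. The implied read depth of the gene was at least 98.6 reads per base in K382Q libraries and 9.82 to 19.3 in K382R libraries, so the K382R level is the less precise of the pair. Among the tested genes, Selenbp1 stood at the 30.5th percentile of expression in K382R cells and at the 75.6th in K382Q cells.

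Its paralog Selenbp2 was at or near 0 throughout. Selenbp2 (ENSMUSG00000068877.13, chromosome 3, 94600863 to 94611720, plus strand) lies 228.6 kb upstream of Selenbp1 in the same orientation. It was listed at 0 in 4 libraries, at 0.0467 TPM in K382Q replicate 2 and at 0.0697 TPM in K382R replicate 2, which were the most deeply sequenced library of each group. Selenbp1 made up 98.9% to 100.0% of the summed level of the paralogs in each library. The log2 fold change of that sum was 3.05, the same as for Selenbp1 alone.

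The near absence of Selenbp2 matters for reading Selenbp1, because the 2 genes are close to identical. In the GENCODE M39 annotation of GRCm39, the coding sequences of their canonical transcripts are both 1419 bases long and differ at 18 of these, an identity of 98.73% without gaps. Of the 1270 windows of 150 bases, the length of a read, 109 held no difference, and the median window held 2. The longest identical run was 193 bases. A single read from an identical window fits both genes equally, whereas most windows carry at least 1 base that tells them apart. The study sequenced reads in pairs, and the windows do not take the other read of a pair into account. How the authors' alignment divided reads that fit both was not tested. The stretch of 60 coding bases with the most differences, bases 390 to 449 from the start codon, is given with the differing bases in capitals:
Selenbp1: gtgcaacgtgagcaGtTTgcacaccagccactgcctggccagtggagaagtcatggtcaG
Selenbp2: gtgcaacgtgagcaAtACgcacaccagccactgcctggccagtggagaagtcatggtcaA
The stretch also bears on the Selenbp1 primers listed by the study. The forward primer matched both transcripts without a mismatch, and the reverse primer matched Selenbp1 fully and Selenbp2 with 3 mismatches at or near the end that is extended. Against Selenbp2 these mismatches, in capitals, are as follows:
forward primer: gctgatactgcctggtctca
reverse primer: agtggctggtgtgcAAaC

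**Figure D1:**
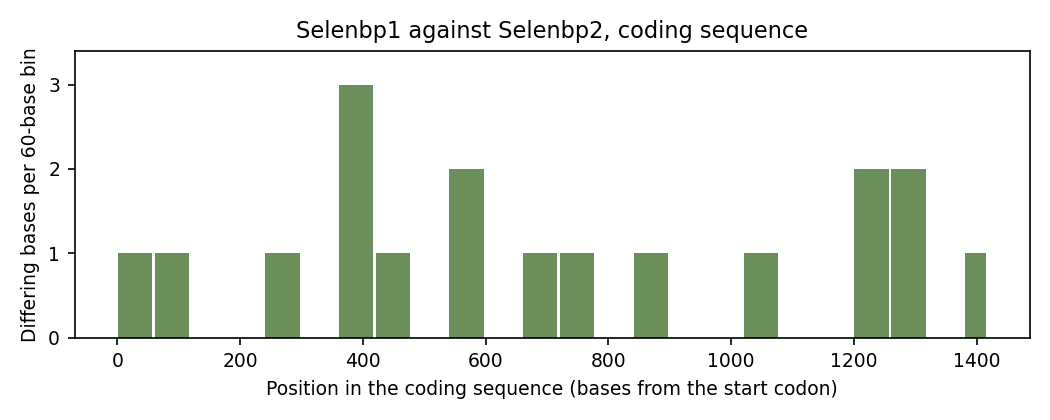
Number of differing bases between the coding sequences of Selenbp1 and Selenbp2 in consecutive bins of 60 bases (x axis, bases from the start codon). The 18 differences are spread along the 1419 bases, with no bin above 3 and several bins at 0.

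The paralogs also share most of their promoter sequence. RefSeq promoter windows of 300 bases, from 250 before to 50 after the start, were available for 7 members in a table of GRCm38.p6. They were placed on GRCm39 by exact match, each at 1 position. The windows of Selenbp1 (chr3:94840144-94840443, plus strand) and Selenbp2 (chr3:94600630-94600929, plus strand) were identical at 272 aligned bases and different at 16, an identity of 94.44%. They are shown because genes with such similar starts had such different levels. Capitals mark every match to ACGTG or GCGTG, the core letters bound by hypoxia-inducible factors, on either strand:
Selenbp1: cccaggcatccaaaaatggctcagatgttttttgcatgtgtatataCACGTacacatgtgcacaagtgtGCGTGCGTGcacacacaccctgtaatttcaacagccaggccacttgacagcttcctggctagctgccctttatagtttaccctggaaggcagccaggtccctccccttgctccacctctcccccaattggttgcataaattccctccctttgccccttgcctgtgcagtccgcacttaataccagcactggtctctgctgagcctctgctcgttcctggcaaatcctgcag
Selenbp2: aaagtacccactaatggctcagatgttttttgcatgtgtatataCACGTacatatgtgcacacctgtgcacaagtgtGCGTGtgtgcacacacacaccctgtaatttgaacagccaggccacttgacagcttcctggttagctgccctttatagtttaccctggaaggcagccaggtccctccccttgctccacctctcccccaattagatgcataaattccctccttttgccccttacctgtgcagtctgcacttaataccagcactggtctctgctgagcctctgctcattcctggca
Both windows held 1 match to ACGTG, a motif found in 19.6% of the 32851 promoter windows of the same table. Selenbp1 held 2 overlapping matches to GCGTG and Selenbp2 held 1, and 32.4% of all windows held at least 1. Neither held AGGTCA, the hexamer bound by nuclear receptors such as PPARγ (16.3% of all windows), or TGACNNNGC, the core letters of the antioxidant response element (12.4%). Of the other members with a window, Suox held 1 match to ACGTG, Cbs held 2, and Mpst held matches to GCGTG and TGACNNNGC, while Sqor and Ethe1 held no match to any of these motifs. These matches describe letters in a short window and do not show binding. Likewise, the lack of a match in a window does not show that a factor has no site at the gene.

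The genes around Selenbp1 did not share its difference. Within 250 kb on either side 29 further genes were annotated in the tables and 18 were tested, of which 1 was higher in K382Q cells and 5 were lower by limma (Benjamini-Hochberg adjusted p under 0.05 over all genes tested), beside 11.1% and 36.9% of all genes. Their log2 fold changes ran from -0.55 to 0.34, and none passed both thresholds.

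**Figure D2:**
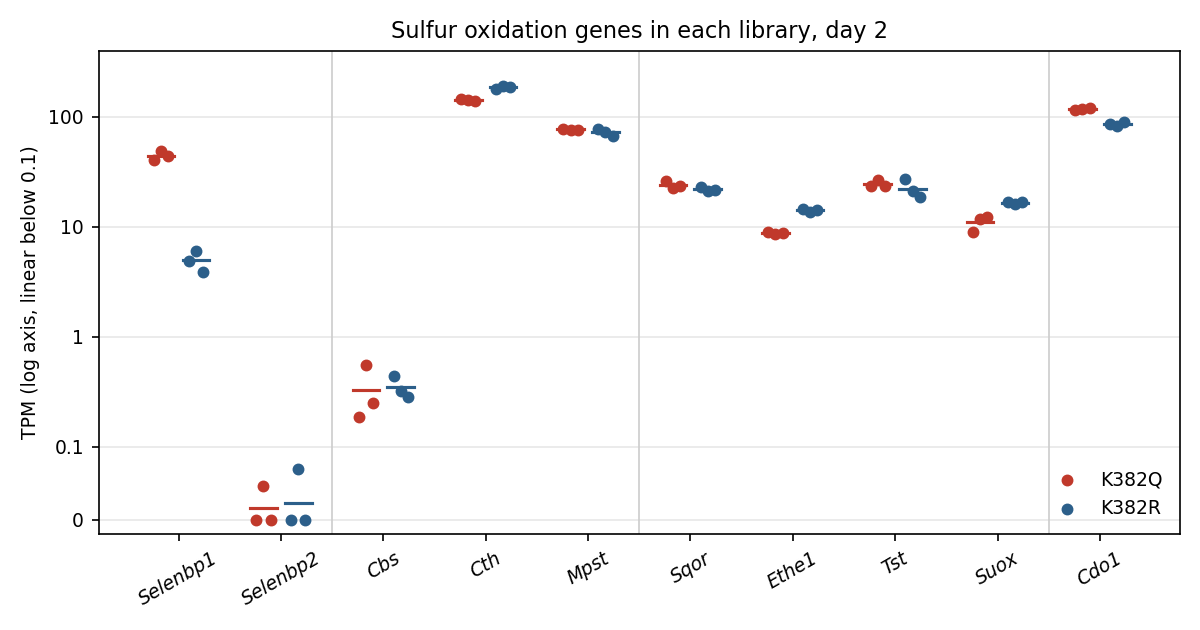
TPM of the 10 genes in each library (points) with the group mean (short horizontal lines), K382Q in red and K382R in blue, on a log axis that is linear below 0.1 TPM. Selenbp1 is the gene whose groups lie farthest apart, while Selenbp2 and Cbs stay under 0.6 TPM in every library.

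Of the sulfide-producing enzymes, Cth was lower, Mpst overlapped between the groups in TPM and Cbs was barely detected. Cth (ENSMUSG00000028179.13, chromosome 3, 157599885 to 157630714), the most abundant of the 10 genes in both groups, was at 145, 142 and 139 TPM in K382Q cells and at 180.4, 189.7 and 188 TPM in K382R cells. No K382Q library reached the lowest K382R library. The log2 fold change of Cth was -0.39 (standard error 0.0326, 95% interval -0.46 to -0.31). It was -0.24 (standard error 0.0305) under median-ratio scaling, and the groups still did not overlap. Mpst (ENSMUSG00000071711.13, chromosome 15, 78290616 to 78298213) was at 78.3, 76.2 and 76.6 TPM against 77.6, 73.2 and 66.7 TPM, so that 1 K382R library lay among the K382Q libraries. Its log2 fold change of 0.09 had a 95% interval from -0.04 to 0.22. Under median-ratio scaling it was 0.24 (standard error 0.0557), and the groups no longer overlapped. Cbs, the enzyme that commits homocysteine to cysteine synthesis, was at 0.184, 0.551 and 0.247 TPM against 0.436, 0.317 and 0.282 TPM, at most 1.70 reads per base, and did not pass the filter on low values. The Cbs levels overlapped, and at this depth no difference could be seen. Summed over these 3 genes, the level was 219 ± 3.88 TPM (SD, n = 3) in K382Q cells and 259 ± 4.13 TPM (SD, n = 3) in K382R cells, without overlap.

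The 4 mitochondrial sulfide oxidation genes split into a pair that was lower in K382Q cells and a pair that overlapped in TPM. Ethe1 (ENSMUSG00000064254.7, chromosome 7, 24286968 to 24308350) was at 9.03, 8.64 and 8.84 TPM in K382Q cells and at 14.6, 13.7 and 14.2 TPM in K382R cells. On the log2 scale Ethe1 differed by -0.65 (standard error 0.059, 95% interval -0.79 to -0.51). The spread between replicates of Ethe1 was small beside that gap. Suox (ENSMUSG00000049858.9, chromosome 10, 128505763 to 128509942), the molybdenum enzyme of the last step, was at 8.99, 11.7 and 12.2 TPM against 16.7, 16.2 and 16.8 TPM. Its log2 fold change was -0.58 (standard error 0.108, 95% interval -0.84 to -0.33). K382Q replicate 1 was the lowest Suox library, and without it the fold change was -0.45 with no overlap of the remaining libraries.

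Sqor and Tst did not separate the groups in TPM, and under median-ratio scaling Sqor did. Sqor (ENSMUSG00000005803.15, chromosome 2, 122607157 to 122651489), which takes sulfide into the respiratory chain, was at 26.1, 22.4 and 23.3 TPM in K382Q cells and at 23.1, 21.2 and 21.5 TPM in K382R cells. Its log2 fold change of 0.12 had a 95% interval from -0.04 to 0.28. Under median-ratio scaling it was 0.27 (standard error 0.063), and every K382Q library lay above every K382R library. Tst (ENSMUSG00000044986.11, chromosome 15, 78283756 to 78290107) was at 23.3, 26.5 and 23.5 TPM against 27.0, 21.1 and 18.6 TPM, with the highest value of all in a K382R library. Its log2 fold change was 0.15, with a 95% interval from -0.15 to 0.44. Tst and Mpst lie head to head on opposite strands, their annotated ends 509 bases apart in the tables, and the ratio of Tst to Mpst was 0.279 to 0.348 over all 6 libraries with overlapping groups. As the counting is not stated to use strand, reads near that boundary could be assigned to either gene.

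The balance within the route differed between the groups. The 4 oxidation genes together were at 68.1 ± 0.983 TPM (SD, n = 3) in K382Q cells and at 74.9 ± 5.62 TPM (SD, n = 3) in K382R cells, without overlap. Under median-ratio scaling, which divides each library by its median ratio to the mean library, the sums overlapped at 71.5 ± 1.82 and 70.8 ± 5.50 (SD, n = 3). The ratio of Sqor to Ethe1 was 2.89, 2.59 and 2.63 in K382Q libraries and 1.59, 1.55 and 1.52 in K382R libraries. The ratio of Sqor to Suox was 2.90, 1.91 and 1.91 against 1.38, 1.31 and 1.28. In both ratios every K382Q library was above every K382R library. Such within-library ratios stay the same when each library is divided by a single factor, as in median-ratio scaling. Quantile normalization can change them, and they were not computed under it.

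Cdo1, the cysteine dioxygenase, was higher in K382Q cells. Cdo1 (ENSMUSG00000033022.9) was at 115, 118 and 121 TPM against 87.0, 82.3 and 90.4 TPM, again with no overlap. The log2 fold change of Cdo1 was 0.44 (standard error 0.0416, 95% interval 0.35 to 0.54). Cth makes cysteine and Cdo1 consumes it, and the ratio of Cth to Cdo1 was 1.26, 1.20 and 1.16 in K382Q cells and 2.07, 2.31 and 2.08 in K382R cells. This ratio was thus lower in each K382Q library than in any K382R library.

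**Figure D3:**
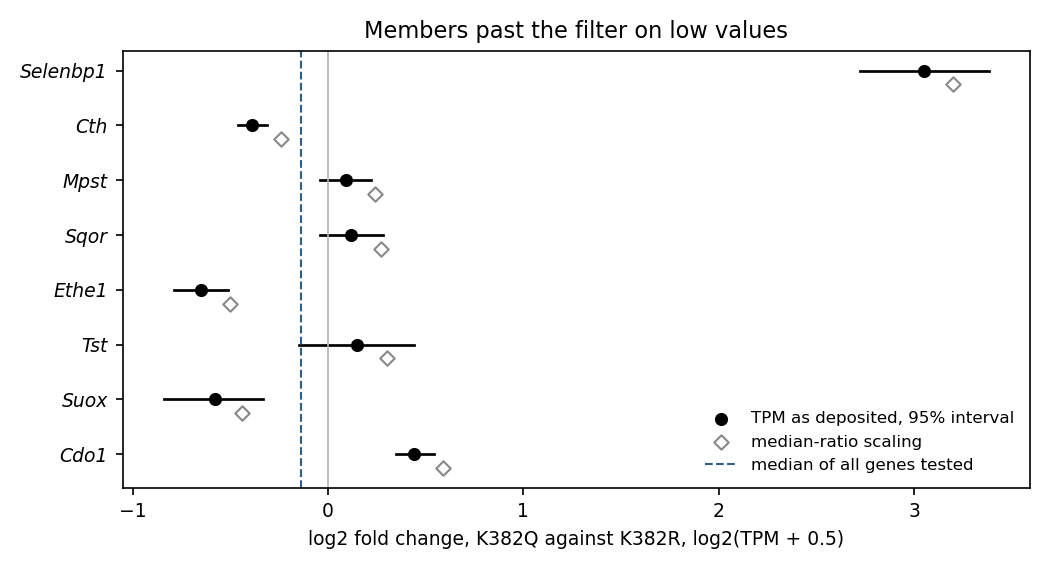
Log2 fold change of K382Q against K382R on the log2(TPM + 0.5) scale for the 8 genes past the filter, with 95% intervals from the limma fit (lines), the value under median-ratio scaling (open diamonds) and the median of all genes tested at -0.14 (dashed line). Selenbp1 at 3.05 stands apart, and no gene changes side of 0 under the other scaling.

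In order of level, Cth, Cdo1 and Mpst were the most abundant of the 10 genes in both groups, in this order. Selenbp1 was in place 8 in K382R cells, below Suox and Ethe1, and in place 4 in K382Q cells, above Tst and Sqor. In both groups the neighbours Tst and Sqor overlapped, and in K382Q cells Suox and Ethe1 overlapped as well. The ranges of the other neighbours in the order did not overlap. Selenbp1 was 9.83% ± 0.86 (SD, n = 3) of the summed level of the 10 genes in K382Q cells and 1.16% ± 0.254 (SD, n = 3) in K382R cells. The sum of all 10 was 450 ± 3.92 TPM (SD, n = 3) against 425 ± 5.71 TPM (SD, n = 3), and without Selenbp1 it was 405 ± 0.938 TPM (SD, n = 3) against 420 ± 5.56 TPM (SD, n = 3). Neither sum overlapped between the groups, and in TPM they lay in opposite directions. That opposition depended on the scaling, since under median-ratio scaling the sum without Selenbp1 was also higher in K382Q cells, by a factor of 1.07.

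Of the 8 members past the filter, 2 were higher in K382Q cells and 3 were lower with an adjusted p under 0.05, beside 11.1% and 36.9% of all genes tested, or 48.1% in either direction. Selenbp1 alone also passed a fold change over 2, as 1.27% of all genes did in that direction and 2.61% in the other. The libraries of the groups did not overlap for 5 of the 8, as for 57% of all genes tested. Nothing is read from these member counts, since the contrast chose the members. The median log2 fold change of all genes tested was -0.14 and became 0.0032 with median-ratio scaling. With that scaling Tst was at 0.30 and its groups still overlapped.

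The partner genes, 94 genes of sulfur and selenium metabolism that are not members, were tested with limma on log2(TPM + 0.5) with Benjamini-Hochberg adjustment over all 15426 genes. In all, 87 were tested, 14 rose and 43 fell in K382Q cells, and 30 did not pass. This is 16.1% and 49.4%, beside 11.1% and 36.9% of all genes, and the median log2 fold change was -0.14, that of all genes. Only Fmo1 also passed a fold change over 2, beside 3.88% of all genes in either direction. The balance followed the scaling, with 21 higher and 24 lower under median-ratio scaling. The share of all genes at an adjusted p under 0.05 was not counted under that scaling. Counts of the lists below under median-ratio scaling therefore have no such share beside them.

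**Figure D4:**
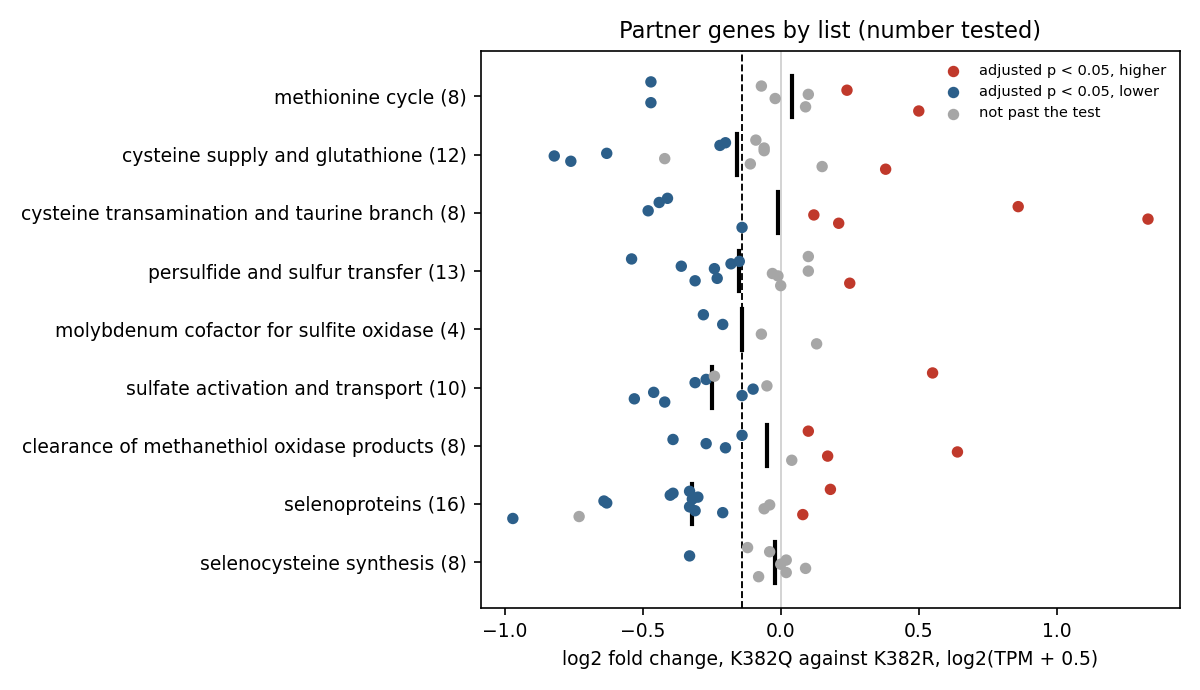
Log2 fold change of K382Q against K382R of each tested partner gene by list, with the number tested in brackets. Red and blue points had an adjusted p under 0.05 and were higher or lower, grey points did not pass, black bars are list medians and the dashed line is the median of all genes tested. Fmo1 at 1.33 and Gpx1 at -0.97 are the outermost points.

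Genes of the cysteine transamination and taurine branch moved both ways, with 4 of 8 higher and 4 lower, or 4 higher and 2 lower under median-ratio scaling and 3 higher and 2 lower without K382Q replicate 2. Fmo1, a flavin monooxygenase that can oxidize hypotaurine to taurine, was at 7.80, 7.83 and 8.43 TPM in K382Q cells and at 2.76, 3.50 and 2.49 TPM in K382R cells. It rose by 1.33 on the log2 scale (standard error 0.122, adjusted p = 8.54e-05, limma). Kyat1, a cysteine conjugate β-lyase and aminotransferase, rose from 12.4 ± 0.462 TPM (SD, n = 3) to 22.9 ± 1.88 TPM (SD, n = 3) (log2 fold change 0.86, adjusted p = 4.83e-05, limma). With median-ratio scaling its value was 1.01, past 2-fold. Got2, the mitochondrial aspartate aminotransferase, which also accepts cysteine metabolites, fell (log2 fold change -0.48, adjusted p = 2.77e-05, limma). All 3 kept an adjusted p under 0.05 in each alternative fit.

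Of 8 genes that clear the products of methanethiol oxidation, 3 were higher, 4 lower and 1 did not pass, while under median-ratio scaling 4 were higher and 2 lower. Catalase (Cat), which removes hydrogen peroxide, was at 587, 576 and 573 TPM in K382Q cells and at 365, 378 and 371 TPM in K382R cells. It rose by 0.64 on the log2 scale (standard error 0.0268, adjusted p = 2.34e-06, limma). The peroxiredoxin genes Prdx1 and Prdx2 fell, with log2 fold changes of -0.27 and -0.39 (adjusted p = 0.000448 and 4.29e-05, limma). Their values were smaller under median-ratio scaling, at -0.12 and -0.24. The list thus held peroxide-removing enzymes that moved in opposite directions, around a median of -0.05.

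In the list of selenoprotein genes 11 of 16 tested were lower and 2 higher, with a median of -0.32. This is 68.8% and 12.5%, beside 36.9% and 11.1% of all genes tested, whose median was -0.14. Under median-ratio scaling 9 were lower and 2 higher, with a median of -0.17 beside 0.0032 for all genes tested. The 2 higher genes, Gpx4 and Txnrd3, named after their values were seen, lost the call with the replicate block, without the filter on low values and in each fit without 1 library except that without K382Q replicate 1, and Gpx4 also lost it with quantile normalization and without the intensity trend. Gpx1, a selenium-dependent glutathione peroxidase, had the lowest fitted log2(TPM + 0.5) difference of all partner genes in the fit of all 6 libraries. Ggt5 was lower with a pseudocount of 0.1, at -1.13, and without K382Q replicate 3, at -0.99 against -0.96 for Gpx1. Gpx1 was at 233, 243 and 232 TPM in K382Q cells and at 457, 461 and 470.4 TPM in K382R cells, and fell by 0.97 on the log2 scale (standard error 0.0299, adjusted p = 6.49e-07, limma), just short of 2-fold. Selenon and Selenom, both of the endoplasmic reticulum, fell by 0.64 and 0.63 (adjusted p = 2.35e-05 and 4.57e-05, limma). Of the 8 genes of selenocysteine synthesis, Sephs2, which makes selenophosphate, was the single one to pass, at -0.33 (adjusted p = 0.000302, limma), and the list median was -0.02. Under median-ratio scaling 2 genes of that list were higher and 1 lower, with Sephs2 at -0.18. Sephs2 also encodes a selenoprotein, as do Txnrd1 and Txnrd2 of the persulfide and sulfur transfer list. These genes were not among the 16 counted above.

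In the methionine cycle 2 of 8 tested genes were higher and 2 lower, and under median-ratio scaling 4 were higher and 2 lower. The counts were 1 higher and 3 lower without K382Q replicate 1, 1 higher and 2 lower without K382Q replicate 2, K382R replicate 2 or K382R replicate 3, and 3 higher and 2 lower without K382Q replicate 3. Ahcy, which splits S-adenosylhomocysteine and so supplies homocysteine, rose from 105 ± 1.91 TPM (SD, n = 3) to 149 ± 2.41 TPM (SD, n = 3) (log2 fold change 0.50, adjusted p = 1.06e-05, limma). Its relative Ahcyl2, with -0.47 (adjusted p = 5.44e-05), and the methionine synthase reductase Mtrr, with -0.47 (adjusted p = 0.000347), fell in the same limma fit. Mat1a, Bhmt and Bhmt2, which are genes of the liver, were listed at 0 in every library.

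Of 12 genes of cysteine supply and glutathione synthesis, 5 were lower and 1 higher, and 6 did not pass. Under median-ratio scaling 3 were lower and 1 higher. Gclm, the regulatory subunit of the enzyme that starts glutathione synthesis, fell from 67.0 ± 6.20 TPM (SD, n = 3) to 39.5 ± 2.66 TPM (SD, n = 3) (log2 fold change -0.76, adjusted p = 0.000119, limma). The γ-glutamyltransferase relatives Ggt5 and Ggt7, both at low level, had log2 fold changes of -0.82 and -0.63 (adjusted p = 0.0163 and 0.014, limma). The limma call of Ggt5 ended without K382Q replicate 2 (adjusted p = 0.0523), K382R replicate 3 (adjusted p = 0.059) or the filter on low values (adjusted p = 0.0552), in a range of 0.00957 to 0.059 over its alternatives, and that of Ggt7 without the filter on low values (adjusted p = 0.0594, in a range of 0.00586 to 0.0594).

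Among 13 genes of persulfide and sulfur transfer 7 were lower and 1 higher, with a median of -0.15, close to that of all genes. Under median-ratio scaling 2 were higher and 2 lower. Thioredoxin reductase 1 (Txnrd1) fell by 0.54 (adjusted p = 0.000211, limma). Tstd3, a gene of the rhodanese family, had a log2 fold change of -0.36 (adjusted p = 0.0355, limma). This call ended under 10 of the alternatives, among them without K382Q replicate 1 or 2 and without each K382R replicate, in a range of adjusted p from 0.0174 to 0.20. Txnrd1 kept an adjusted p under 0.05 in each alternative fit.

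Sulfate activation and transport had 7 of 10 tested genes lower and 1 higher, with a median of -0.25, and 3 lower and 1 higher under median-ratio scaling. Bpnt2 and Papss2, a nucleotidase and a synthase of the sulfate donor cycle, fell by 0.53 and 0.46 (adjusted p = 5.41e-05 and 0.000831, limma). The sulfotransferase gene Sult1a1 rose by 0.55 (adjusted p = 0.000188, limma). Of the 4 genes for the molybdenum cofactor that sulfite oxidase needs, 2 were lower and 2 did not pass, with a median of -0.14. Under median-ratio scaling 1 was higher and 0 lower, with a median of 0.01. In TPM the lower genes were Mocs2 and Mocs3, at -0.21 and -0.28 (adjusted p = 0.0011 and 0.0175, limma). Both lost the call under median-ratio scaling, with adjusted p = 0.185 and 0.204 (ranges 0.000949 to 0.185 and 0.015 to 0.206), and Mocs3 also with quantile normalization (0.206), with FPKM (0.0631) and without K382R replicate 1 or 2 (0.0616 in each).

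The genes whose pattern was most like that of Selenbp1 were Gpr15lg, Ppp1r3c, Gm47593, Gm47595 and Ndufa4l2. Likeness was the root mean square difference of log2(TPM + 0.5), centred on the K382R mean, over the 6 libraries, and it was 0.202, 0.293, 0.294, 0.362 and 0.363 for these genes in that order. Gpr15lg, which encodes a secreted ligand of the receptor GPR15, was at 24.3, 32.0 and 31.0 TPM in K382Q cells and at 2.97, 3.82 and 3.52 TPM in K382R cells. Like Selenbp1 it was lowest in K382Q replicate 1 and highest in K382Q replicate 2, and it was also highest in replicate 2 of K382R. Ppp1r3c, a glycogen-targeting subunit of protein phosphatase 1, was at 16.3, 18.2 and 16.4 TPM against 2.17, 1.44 and 1.89 TPM. Ndufa4l2, known as a hypoxia-induced gene of mitochondria, was at 23.6 ± 1.05 TPM (SD, n = 3) against 1.75 ± 0.169 TPM (SD, n = 3). Gm47593 and Gm47595, neighbours on chromosome 10, had log2 fold changes of 2.74 and 3.08. Since the measure follows the difference between the groups, these are genes with a difference of similar size.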

How the data were processed

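Each of the 6 libraries, 3 of K382Q and 3 of K382R, came with 1 StringTie gene table. Per the labels and the study's methods, HISAT2 alignment to GRCm39 of adapter-trimmed reads preceded the authors' quantification with StringTie. The annotation release is not given in the sources used here. In every library the deposited TPM values sum to 1000000, the deposited FPKM is proportional to it within a library, and the deposited coverage signal is the mean read depth per base, unnormalized. Coverage was used for depth alone, as the highest ratio of coverage to FPKM in a library. This depth times FPKM gave the implied reads per base of a gene. Counting intervals could not be given, since the tables hold no counts, and precision rests on 3 replicates.

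Values of repeated gene IDs (3 to 5 per library) were summed. Genes with at least 0.5 TPM in at least 3 libraries were compared with limma 3.58.1 (R 4.3.3, intensity trend) on log2(TPM + 0.5), with Benjamini-Hochberg adjustment. The pseudocount of 0.5 understates the change of low genes. Calls used an adjusted p under 0.05, with or without a fold change over 2. An exact permutation test of 3 against 3 cannot go below 0.1 (two-sided), so single genes were not tested that way. The procedure was tested on simulated data. Sequences were handled with Python 3.11.15 and Biopython 1.88, promoters are those of RefSeq (GRCm38.p6), and Cars1 is listed as Cars in the tables. Of the genes above 0 in both libraries of a pair, at most 0.0145% had the same TPM.

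The members and lists were chosen with earlier results of these data known. Named were all members, up to 3 genes per partner list with an adjusted p under 0.05 and the largest change, the 5 genes most like Selenbp1, and Pparg. Markers were named to check the cells. A gene that this rule names and a marker are not reported here.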

Additional observations from a re-analysis of the deposited data

How the results depend on the processing

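Over the alternatives run for the 8 members past the filter, no log2 fold change changed sign, and 14 of 129 values moved by more than the replicate spread, all under FPKM, median-ratio scaling or quantile normalization. Selenbp1 stayed between 2.91 and 3.20. Of 479 values of the 30 other named genes, 20 lost their call (those of Ggt5, Ggt7, Tstd3, Mocs2 and Mocs3) and none reversed. The genes called numbered 599 and were 377 with FPKM, 889 with a pseudocount of 0.1 and 443 with a pseudocount of 1. The share called higher, 32.7%, was 40.1% with FPKM, 49.2% with median-ratio scaling and 47.5% with quantile normalization. The partner genes called higher were 2 under both of these scalings (Fmo1 and Kyat1), and those called lower were 1 with a pseudocount of 0.1 (Ggt5). At an adjusted p under 0.05, partner genes higher were 22 with quantile normalization, and partner genes lower were 24 with median-ratio scaling and 28 with quantile normalization. With 1 library left out, 611 to 646 genes were called, 1 partner gene was called higher and 0 lower, 9 to 13 partner genes were higher (9 without K382Q replicate 2) and 36 to 41 lower. Same-numbered libraries had correlations of deviations of -0.018, 0.051 and 0.022, in a range of -0.064 to 0.051 over all pairs between the groups. These values cannot settle whether the replicate numbers pair the libraries, and the labels do not say. With the replicate block, 604 genes were called, and 11 partner genes were higher and 45 lower. The cause of these shifts was not tested. Depth limits Cbs and Selenbp2.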
